A study of Mus musculus with 6 samples.

Results

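The IL-6 family of cytokines and the STAT3 axis were followed here as 10 genes, chosen by name for their place in the pathway, with earlier results of these data known, out of the 27202 genes measured. They comprise 4 ligands (*Il6*, *Il11*, *Osm* and *Lif*), 4 receptor chains (*Il6ra*, *Il6st*, *Osmr* and *Il11ra1*), the transcription factor *Stat3* and the feedback inhibitor *Socs3*. RNA sequencing gave 3 libraries of whole colon from Nedd4l fl/fl Villin Cre mice (cKO), in which the Villin promoter drives Cre recombinase in intestinal epithelial cells (IECs), and 3 libraries from Nedd4l fl/fl littermates without that deletion (WT). The mice were 8 to 10 weeks old and, per the labels, had received 2% dextran sulfate sodium (DSS), which injures the colonic epithelium, in drinking water for 7 days. No untreated mice were analysed here, so every difference below is between genotypes under DSS.

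IL-6 family cytokines all signal through gp130, the shared receptor chain encoded by *Il6st*. IL-6 and IL-11 first bind their own α-chains, encoded by *Il6ra* and *Il11ra1*, oncostatin M pairs gp130 with the chain encoded by *Osmr*, and LIF pairs it with the LIF receptor. JAK kinases bound to these chains then phosphorylate STAT3, which enters the nucleus and switches on its target genes, among them *Socs3*, whose product binds gp130 and JAK and shuts the signal down. In the injured colon the ligands come largely from stromal and myeloid cells, and STAT3 activity in the epithelium is known for its part in wound repair.

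Values are normalized read counts, and differences are log2 fold changes of cKO over WT on the log2(value + 1) scale with their standard error (SE). *Nedd4l* itself stood at 662 ± 247 (SD, n = 3) in cKO and 1260 ± 15.96 (SD, n = 3) in WT, with all 3 cKO libraries below all 3 WT libraries. Whole colon also holds cells in which the Villin promoter is silent, and the source of the remaining *Nedd4l* RNA was not tested. The library cKO 2 retained the most *Nedd4l* of the 3, 942 normalized counts. Across genes cKO 2 correlated more closely with the WT libraries (mean r = 0.977) than with the other cKO libraries (mean r = 0.966). The lowest means of the 6 libraries were those of cKO 1, 0.963 with the other cKO libraries and 0.948 with WT. The mean of 0.966 includes cKO 1, so it does not by itself mark cKO 2 as the odd library. For genes whose value depends on 1 library, the value without it is given beside it. Because tissue was sequenced in bulk, fewer cells of one type and less RNA per cell cannot be told apart in any of these values.

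The mean was higher in cKO for 9 of the 10 genes, the exception being *Il11ra1*. All 3 cKO libraries stood above all 3 WT libraries for 5 of the 10 (*Il6*, *Il11*, *Il6st*, *Stat3* and *Socs3*), as they did for 8.30% of all genes listed, and all 3 stood below for *Il11ra1*, as for 7.77% of all genes listed. No gene of the 10 passed an adjusted p of 0.05 in limma, and neither did any of the 16246 genes that averaged 10 or more normalized counts (0% in either direction). At an unadjusted p under 0.05 in the limma fit of all 27202 genes, *Il6*, *Il11*, *Il6st* and *Socs3* were higher, against 5.37% of genes, and *Il11ra1* was lower, against 4.93%. When each library was left out in turn, in the fit of the filtered genes and for *Il6* in that of all genes, *Il6* and *Il11* stayed under that threshold, whereas *Socs3* did not without cKO 1, *Il6st* did not without WT 1 or WT 2, and *Il11ra1* stayed under it only without cKO 3. An exact permutation test of 3 against 3 libraries cannot give a p below 0.1, and that is the value it gave for each of the 6 genes whose groups were separate.

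**Figure D1:**
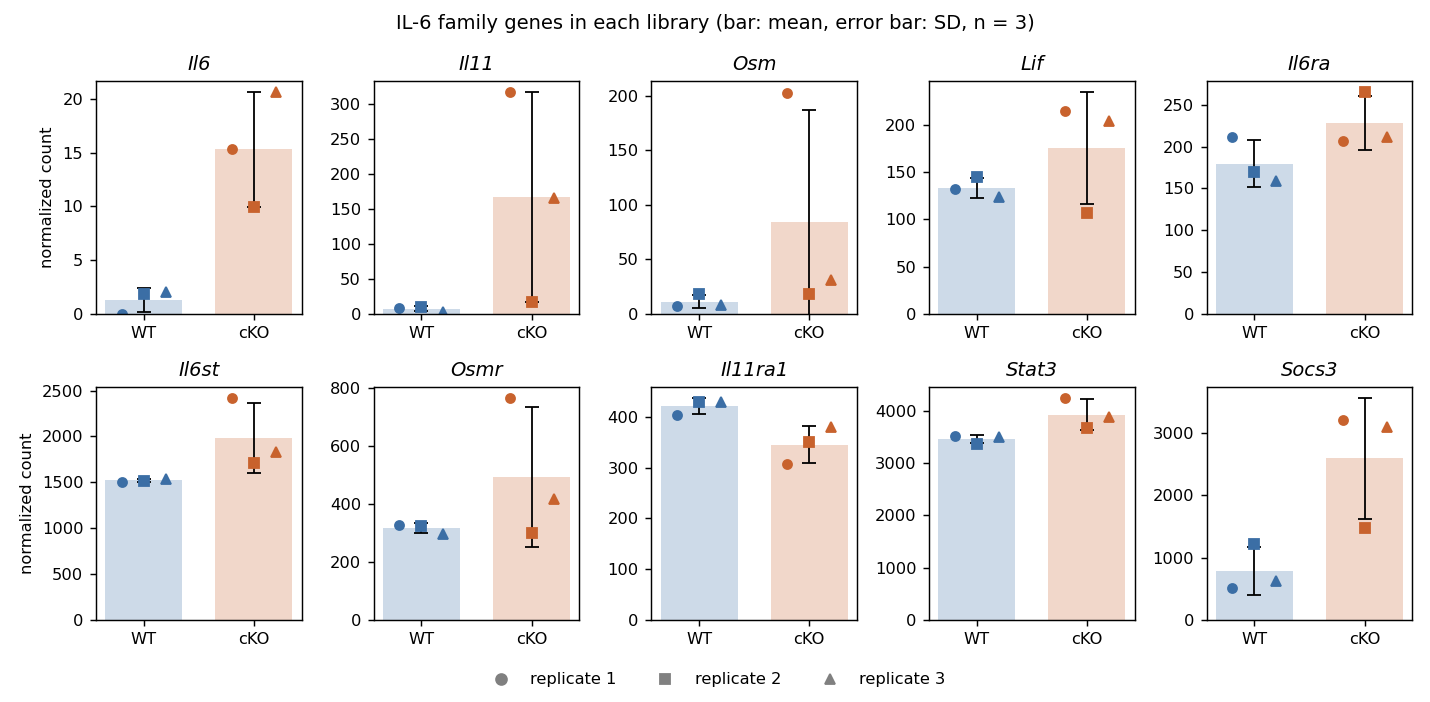
Normalized read counts of the 10 genes in each library, with cKO and WT side by side; points are libraries, and the bars give the mean and SD of 3 libraries, cut at 0 where the SD exceeds the mean. For *Il6*, *Il11*, *Il6st*, *Stat3* and *Socs3* the 3 cKO points lie above the 3 WT points, and for *Il11ra1* below them.

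*Il6* (ENSMUSG00000025746, chromosome 5 from 30013114 to 30019981, plus strand) encodes interleukin-6, the cytokine that names the family. It was scarce in both groups, with 15.3, 9.95 and 20.6 normalized counts in cKO 1, 2 and 3 and with 0, 1.80 and 2.00 in WT 1, 2 and 3. Every cKO library was above every WT library, and the lowest cKO value belonged to cKO 2. The group means were 15.3 ± 5.34 (SD, n = 3) and 1.27 ± 1.10 (SD, n = 3). Its mean over the 6 libraries was under 10, so it was fitted among all 27202 genes, where its log2 fold change was 2.95 (SE 0.61, adjusted p = 0.0904 from limma, unadjusted p = 0.000268). If one step of the normalized values is one read, the groups held 45 and 4 reads, and the ratio of 12.1 has a counting interval from 4.39 to 46.1. That interval covers counting error only. In that fit 0.0257% of genes were called higher and 0.0846% lower at an adjusted p of 0.05. Without cKO 2 the adjusted p of *Il6* was 0.0389 from limma, and 0.838% of genes were called higher.

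*Il11* (ENSMUSG00000004371, chromosome 7 from 4772373 to 4782857, minus strand) encodes interleukin-11, made mostly by fibroblasts and other stromal cells. It reached 317 normalized counts in cKO 1, 16.6 in cKO 2 and 166 in cKO 3, whereas the WT libraries held 7.90, 9.90 and 3.00. The groups did not overlap, but the cKO libraries differed among themselves far more than they differed from WT at their lowest point. The log2 fold change was 3.75 (SE 1.12, adjusted p = 0.286 from limma). Without cKO 2 it was 4.98, with an adjusted p of 0.0233 from limma, where 0.431% of genes were called higher and 0.32% lower. With array weights, which give less weight to libraries that vary more, it was 4.39 (adjusted p = 0.0426 from limma), where 1.61% of genes were called higher and 2.27% lower. Without cKO 1 it did not pass, and 0.0123% of genes were called higher and 0.135% lower. *Il11* passed the filter on low values only through its cKO libraries.

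The DNA just before a listed transcription start is shown for *Il6* and *Il11* because they had the largest differences between genotypes of the 10. RefSeq promoters of GRCm38.p6, 250 bases ending at the base before a transcription start, were listed for 9 of the 10 genes, with 11 promoters in all and none for *Osm*. Both strands were searched for letters bound by AP-1 (TGAGTCA) and C/EBP (TTGTGCAAT), which were picked after the sequences had been read. Matches are in capitals, and none overlapped another.
Il6, chr5:30012864-30013113, plus strand: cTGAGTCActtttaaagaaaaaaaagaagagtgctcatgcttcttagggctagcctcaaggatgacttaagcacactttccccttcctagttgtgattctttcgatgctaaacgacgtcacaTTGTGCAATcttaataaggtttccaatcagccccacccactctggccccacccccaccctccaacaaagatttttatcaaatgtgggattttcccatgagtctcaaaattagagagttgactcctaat
Il11, second listed start, chr7:4778142-4778391, minus strand: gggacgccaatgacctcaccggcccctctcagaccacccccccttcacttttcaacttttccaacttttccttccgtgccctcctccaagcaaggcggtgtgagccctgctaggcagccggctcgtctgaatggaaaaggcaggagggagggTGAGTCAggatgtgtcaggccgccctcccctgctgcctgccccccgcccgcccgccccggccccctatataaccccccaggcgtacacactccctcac
The *Il6* window held the AP-1 letters 249 bases before the start and the C/EBP letters at 128. The *Il11* window shown held the AP-1 letters at 98 bases and lies inside the gene span given above. The window of the first listed *Il11* start, which lies just outside that span, held neither. Of 32851 RefSeq promoters of this length, 4.46% held the AP-1 letters and 0.167% the C/EBP letters. The AP-1 letters also occurred in the *Lif* window, on the opposite strand, 228 bases before the start. These matches describe the letters of the windows only.

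*Osm* (ENSMUSG00000058755, chromosome 11 from 4236420 to 4241026, plus strand) encodes oncostatin M, produced mainly by myeloid cells. Its values were 202, 17.7 and 30.9 in cKO 1, 2 and 3 and 6.91, 18.0 and 7.99 in WT 1, 2 and 3. One library, cKO 1, stood far above the other 5, and the groups overlapped because WT 2 exceeded cKO 2. The log2 fold change was 2.16 (SE 0.91, adjusted p = 0.358 from limma), and it was 1.14 without cKO 1.

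*Lif* (ENSMUSG00000034394, chromosome 11 from 4257557 to 4272514, plus strand) encodes leukemia inhibitory factor and lies 16530 bases from *Osm*. It was measured at 216, 107 and 204 normalized counts in cKO 1, 2 and 3 and at 132, 145 and 124 in WT 1, 2 and 3. The libraries cKO 1 and cKO 3 were the highest of the 6 and cKO 2 was the lowest, so that the groups overlapped. The log2 fold change was 0.33 (95% interval −0.30 to 0.96, adjusted p = 0.594 from limma), and it was 0.15 without cKO 1 and 0.65 without cKO 2.

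The makeup of the ligands and their summed level were also compared. These measures were chosen after the values had been seen, and levels were divided by gene length, as normalized counts per kb, to compare genes. *Lif* made up 16.4%, 55.1% and 31.0% of the summed level of the 4 ligands in cKO 1, 2 and 3, against 81.4%, 71.0% and 83.0% in WT 1, 2 and 3. Its mean share was 34.1% ± 19.5 (SD, n = 3) in cKO and 78.5% ± 6.49 (SD, n = 3) in WT, with no overlap (exact permutation p = 0.1). *Il11* contributed 41.7% ± 20.2 (SD, n = 3) in cKO and 8.44% ± 3.55 (SD, n = 3) in WT, again with no overlap (exact permutation p = 0.1). Shares of 1 sum are not independent, so these are not separate results. The mean level of *Lif* itself was not lower in cKO, at 40.4 normalized counts per kb against 30.7 in WT, with overlapping groups. The share of *Osm* overlapped (exact permutation p = 0.4), as did that of *Il6* (exact permutation p = 0.2). The sum of the 4 ligands was 166 ± 129.5 (SD, n = 3) in cKO and 39.5 ± 6.56 (SD, n = 3) in WT, and it overlapped because cKO 2, at 44.8, lay below WT 2, at 46.9 (exact permutation p = 0.2).

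**Figure D2:**
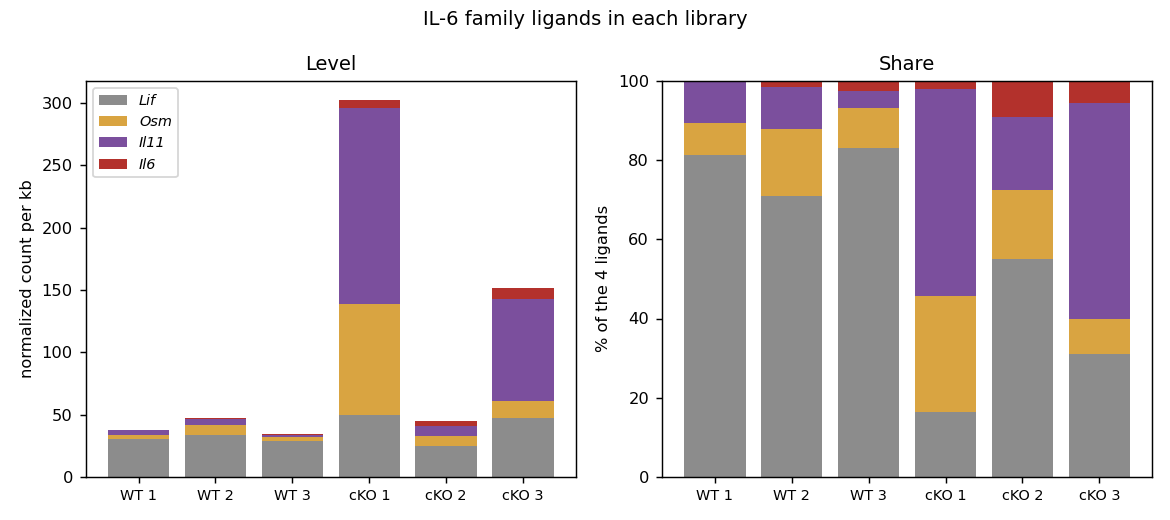
Levels of the 4 ligands, as normalized counts per kb of gene length, in each of the 6 libraries. *Lif* takes 71.0% or more of the summed level in each WT library and 55.1% or less in each cKO library.

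*Il6st* (ENSMUSG00000021756, chromosome 13 from 112464070 to 112510086, plus strand), which encodes gp130, was the most abundant receptor chain per kb in both groups. It stood at 2416, 1706 and 1831 normalized counts in cKO 1, 2 and 3 and at 1507, 1519 and 1536 in WT 1, 2 and 3. All cKO libraries were above the narrow WT range. The log2 fold change was 0.37 (SE 0.13, 95% interval 0.07 to 0.66, adjusted p = 0.309 from limma), a difference with an unadjusted p of 0.0212. Without cKO 1 it was 0.22, and the unadjusted p from limma was 0.0555 without WT 1 and 0.0538 without WT 2.

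The receptor chains other than gp130 did not share a direction. *Il6ra* (ENSMUSG00000027947, chromosome 3 from 89864059 to 89913196, minus strand), the IL-6 receptor α-chain, held 207, 265 and 211 normalized counts in cKO 1, 2 and 3 and 211, 169 and 159 in WT 1, 2 and 3. It was highest in cKO 2, the cKO library in which the 4 ligands were lowest, and the groups overlapped (log2 fold change 0.34, SE 0.17, adjusted p = 0.407 from limma). *Osmr* (ENSMUSG00000022146, chromosome 15 from 6813577 to 6874969, minus strand), the oncostatin M receptor, held 765, 299 and 419 in cKO 1, 2 and 3 and 327, 325 and 296 in WT 1, 2 and 3. Its groups overlapped as well, and the difference of 0.53 on the log2 scale (SE 0.32, limma, adjusted p = 0.483) was 0.16 without cKO 1 and 0.84 without cKO 2.

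*Il11ra1* (ENSMUSG00000073889, chromosome 4 from 41699989 to 41769474, plus strand), the α-chain that binds IL-11, was the only gene of the 10 with a lower mean in cKO. Its values were 307, 350 and 380 in cKO 1, 2 and 3 and 403, 430 and 430 in WT 1, 2 and 3. Every cKO library was below every WT library, with a log2 fold change of −0.29 (SE 0.12, 95% interval −0.56 to −0.02, limma, adjusted p = 0.337). It was −0.21 without cKO 1, where the unadjusted p from limma was 0.12. The count is uncertain because the near-identical copy *Il11ra2* can share its reads, and the 2 entries of *Il11ra2* held at most 4.94 normalized counts in any library. Within libraries, the ratio of *Il6st* to *Il11ra1* per kb was 3.17, 1.96 and 1.94 in cKO 1, 2 and 3 and 1.51, 1.42 and 1.44 in WT 1, 2 and 3 (exact permutation p = 0.1). This separation was fixed by those of *Il6st*, higher in cKO, and *Il11ra1*, lower in cKO, so it adds nothing to them. The ratio of *Il6st* to *Osmr* overlapped (exact permutation p = 0.7), as did that of *Il6st* to *Il6ra*. Ratios of levels were not among the planned comparisons.

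*Stat3* (ENSMUSG00000004040, chromosome 11 from 100885098 to 100939540, minus strand) was abundant in all 6 libraries, at 4236, 3666 and 3868 normalized counts in cKO 1, 2 and 3 and at 3507, 3366 and 3495 in WT 1, 2 and 3. The groups were separate but close, with a difference of 0.18 on the log2 scale (SE 0.08, limma, adjusted p = 0.363). These are transcript levels, and the phosphorylation that activates STAT3 was not measured in these files.

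*Socs3* (ENSMUSG00000053113, chromosome 11 from 117966079 to 117970047, minus strand) showed the widest separation among the abundant genes. It reached 3205, 1478 and 3100 normalized counts in cKO 1, 2 and 3, and 514, 1223 and 623 in WT 1, 2 and 3. The lowest cKO library, cKO 2, and the highest WT library, WT 2, lay close together, while the other libraries were far apart. The means of 2594 ± 968 (SD, n = 3) and 786 ± 382 (SD, n = 3) gave a log2 fold change of 1.74 (SE 0.44, 95% interval 0.65 to 2.84, limma, adjusted p = 0.264). It ranged from 1.49 to 2.11 when each library was left out in turn. The ratio of *Socs3* to *Stat3* per kb was 2.49, 1.33 and 2.64 in cKO 1, 2 and 3 and 0.483, 1.197 and 0.588 in WT 1, 2 and 3 (exact permutation p = 0.1). This ratio was not planned either.

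The *Socs3* promoter is shown because STAT3 is known to bind the letters TTCNNNGAA upstream of this gene. Its window ends before the listed RefSeq start and lies inside the gene span given above. Matches on either strand are in capitals.
Socs3, chr11:117969367-117969616, minus strand, GRCm38.p6: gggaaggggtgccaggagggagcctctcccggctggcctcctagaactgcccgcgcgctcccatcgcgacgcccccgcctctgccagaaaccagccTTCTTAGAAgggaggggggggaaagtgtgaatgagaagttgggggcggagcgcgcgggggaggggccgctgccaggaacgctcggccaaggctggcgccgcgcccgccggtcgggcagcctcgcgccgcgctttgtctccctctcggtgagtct
The window held TTCTTAGAA 154 bases before the start. Of the 32851 promoters, 7.02% held TTCNNNGAA, and none of the other promoters listed for the 10 genes did. The same outer letters with 4 bases between them, found in 5.85% of promoters, was in none of them.

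**Figure D3:**
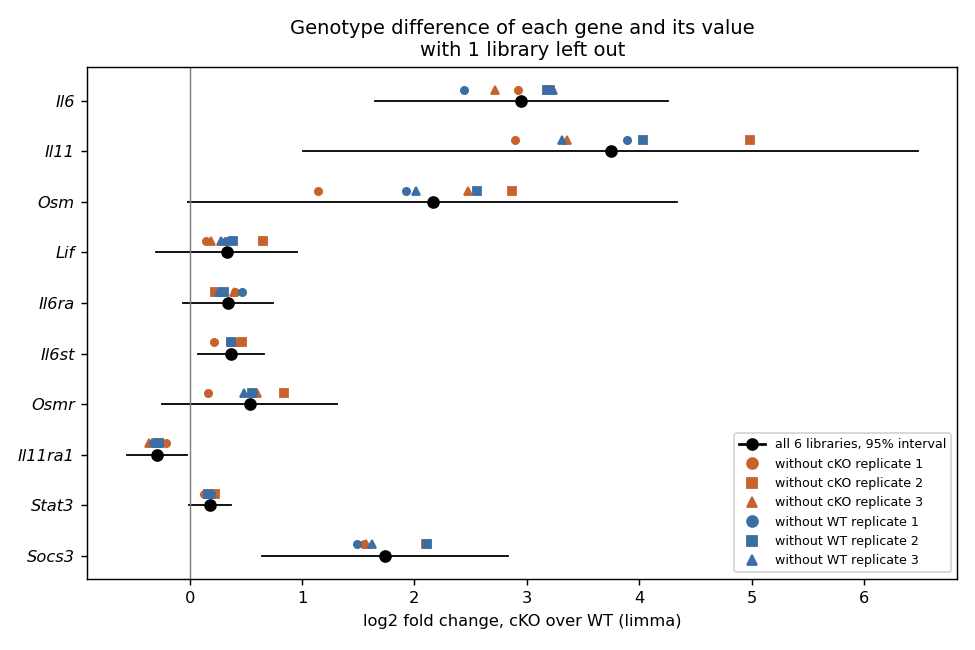
Log2 fold changes of cKO over WT for the 10 genes, with 95% intervals from limma, on the log2(value + 1) scale; black points use all 6 libraries, orange and blue symbols leave out 1 cKO or 1 WT library. The intervals of *Il6*, *Il11*, *Il6st* and *Socs3* lie above 0 and that of *Il11ra1* below 0, before any adjustment for the number of genes tested.

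The order of the genes by level per kb also differed between groups. In WT it ran from *Stat3* (363 ± 8.22 normalized counts per kb, SD, n = 3) through *Socs3* (272 ± 132), *Il6st* (137 ± 1.30), *Il11ra1* (94.2 ± 3.52), *Lif* (30.7 ± 2.43), *Osmr* (26.1 ± 1.45), *Il6ra* (20.8 ± 3.22), *Osm* (4.83 ± 2.69) and *Il11* (3.4 ± 1.77) to *Il6* (0.52 ± 0.45). Neighbours in that order overlapped for *Stat3* and *Socs3*, for *Osmr* and *Il6ra* and for *Osm* and *Il11*. In cKO *Socs3* came first at 897 ± 335 normalized counts per kb (SD, n = 3), separate from *Stat3* at 412 ± 30.3, and *Il11* stood next after *Il6st*, at 82.8 ± 74.7, overlapping with both *Il6st* and *Il11ra1*. *Osmr* (40.8 ± 19.99), *Lif* (40.4 ± 13.7), *Osm* (36.8 ± 45.3) and *Il6ra* (26.4 ± 3.76) followed, each overlapping with the next. *Il6*, at 6.30 ± 2.20 in cKO, was last in both groups.

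Around these genes, the other members of the pathway were described from lists. Of 3 other gp130-family ligands tested, 2 were higher and 1 was lower, and none passed an unadjusted p of 0.05. *Ctf1*, which encodes cardiotrophin-1, was below WT in all 3 cKO libraries (log2 fold change −1.43, adjusted p = 0.365 from limma). It was −0.70 without cKO 1, which held 4.79 normalized counts, against 35.4 and 18.6 in cKO 2 and 3. All 3 other receptor chains tested had a positive log2 fold change, beside 50.2% of all genes tested, and 2 of the 3 did without cKO 1. *Lifr*, the LIF receptor, stood at 0.64 (0.41 without cKO 1 and 0.37 without WT 2). *Cntfr* (0.18) and *Il27ra* (0.08) lay near 0 and turned sign under some alternatives.

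Among 10 JAK kinases and other STAT genes, 10 had a positive log2 fold change (8 without cKO 1), against 50.2% of all genes tested, and 2 had an unadjusted p under 0.05, against 6.91% of genes. *Stat2*, which acts in interferon signalling, stood at 1706 ± 175 (SD, n = 3) and 1206 ± 171 (SD, n = 3), a difference of 0.50 on the log2 scale (limma, adjusted p = 0.215). *Stat6*, the IL-4 and IL-13 responsive factor, differed by 0.23 (adjusted p = 0.314 from limma). The list's median was 0.19, beside 0.0013 over all genes tested.

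Of 16 inhibitors and phosphatases, 12 were higher and 4 lower, with 1 in each direction at an unadjusted p under 0.05, beside 6.91% of all genes higher and 7.08% lower. *Cish*, a feedback inhibitor of STAT5 signalling, was below WT in all 3 cKO libraries, at 183 ± 53.7 (SD, n = 3) against 295 ± 36.2 (SD, n = 3), while *Socs7* was above it. *Socs1* differed by 1.28 on the log2 scale with overlapping groups (limma, adjusted p = 0.376), and by 0.80 without cKO 1. Both proteases that shed the IL-6 receptor, *Adam10* (0.32, adjusted p = 0.276 from limma) and *Adam17* (0.17, adjusted p = 0.352 from limma), had cKO libraries that all stood above WT, though by small margins. The same list also held *Rhbdf1* (−0.04) and *Rhbdf2* (0.27), whose groups overlapped. Over all genes tested, all 3 cKO libraries stood above all 3 WT libraries for 10.5% and below them for 10.9%.

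Other ligands and receptors that activate STAT3 numbered 10 tested genes, of which 9 had a positive log2 fold change, beside 50.2% of all genes tested. *Il10* (mean 7.18 in WT and 13.1 in cKO) and *Il22* (8.63 in WT and 28.3 in cKO) passed the filter on low values only through their cKO libraries. So did *Csf3*, and this count is no support. *Csf3*, which encodes the granulocyte factor G-CSF, held 51.8, 1.11 and 12.4 in cKO 1, 2 and 3 and 0, 0.90 and 0 in WT 1, 2 and 3, and it passed the filter through cKO 1 and cKO 3. Its log2 fold change was 3.20, and 2.10 without cKO 1. *Il22ra2*, the soluble decoy receptor for IL-22, was lower in all 3 cKO libraries, at 45.5 ± 4.27 (SD, n = 3) against 91.3 ± 37.4 (SD, n = 3).

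Of 39 genes known as targets of STAT3, 29 were higher and 10 lower in cKO, and 11 were higher at an unadjusted p under 0.05, or 28.2% beside 6.91% of all genes tested. At that threshold 0 were lower, beside 7.08% of genes. The 11 include *Hp* (mean 8.08 in WT and 322 in cKO) and *Saa2* (6.71 in WT and 14.8 in cKO). Both passed the filter on low values only through their cKO libraries, so they are no support. The 28.2%, the shares below and the list's median still include both, so the comparison with 6.91% rests partly on them. The genes with the smallest p were *Pim3*, a kinase (log2 fold change 0.62), *Serpina3n*, an acute-phase protease inhibitor (2.18), the transcription factors *Cebpd* (0.54) and *Cebpb* (0.65), and *Il4ra*, a chain of the IL-4 receptor (0.87, and 0.58 without cKO 1). The count of higher genes was 5 (12.8%, beside 5.96% of all genes) without WT 1, 11 (28.2%, beside 5.31%) without cKO 1 and 15 (38.5%, beside 8.93%) without cKO 2. The acute-phase gene *Saa3*, chosen after its values were seen, held 3086, 54.2 and 402 in cKO 1, 2 and 3 and 21.7, 30.6 and 15.0 in WT 1, 2 and 3. The more abundant *Saa1* of the same list differed by −0.06 on the log2 scale, with overlapping groups.

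**Figure D4:**
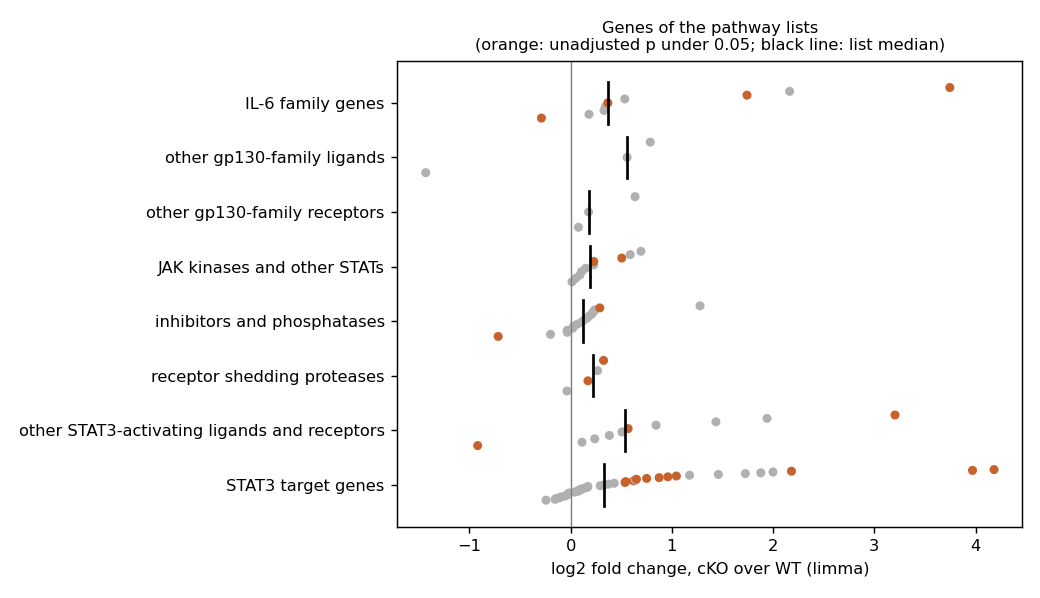
Log2 fold changes of cKO over WT for the genes of each pathway list that were tested; orange points had an unadjusted p under 0.05, grey points did not, and black lines mark each list's median. The median was 0.33 for the 39 STAT3 target genes and 0.0013 over all genes tested. The 39 include *Hp* and *Saa2*, which passed the filter on low values only through their cKO libraries.

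Markers of cells that make or receive these cytokines were summed in the same libraries. Summed fibroblast markers ranged from 24100 to 46300 normalized counts in cKO and from 12300 to 20700 in WT, with the highest sum in cKO 1. Most of this sum in every library was the collagen genes *Col1a1*, *Col1a2* and *Col3a1*, whose groups were separate, as were those of *Pdpn* and *Thy1*. The groups of *Col6a1*, *Dcn*, *Lum* (log2 fold change 0.13), *Pdgfra* and *Fap* (−0.11) overlapped. Of the fibroblast markers, 9 of 10 had a positive log2 fold change. Over all genes tested that share was 50.2%, which stands beside each marker count here. Of 9 neutrophil markers tested, 8 had a positive difference, but *Cxcr2*, *Mmp8*, *Ngp* and *Retnlg* passed the filter only through their cKO libraries, so this count is no support. The summed neutrophil level was 3000 to 10400 in cKO and 2940 to 3260 in WT, and cKO 2 lay within the WT range. Most of the sum in cKO 2 and in WT was *Ly6g*, the 1 tested marker with a negative log2 fold change (−0.27). It held 2832 in cKO 2 and 2829, 3136 and 3064 in WT 1, 2 and 3. The place of cKO 2 therefore rests mainly on that gene. *Cxcr2* and *Mmp8* were listed at 0 in WT 3, *Cxcr2* also in WT 1, and *Ngp* in WT 3 and in cKO 2. Monocyte and macrophage markers summed to 11600 to 13100 in cKO and 7070 to 10900 in WT, 11 of 11 being higher (8 without WT 2), with the highest sum in cKO 2, where the 4 ligands were lowest among the cKO libraries. Epithelial markers summed to 242000 to 283000 and 262000 to 293000, which overlapped. Smooth muscle markers ranged from 5910 to 11300 in cKO and from 5450 to 21500 in WT, with 7 of 7 lower, but 5 of 7 were higher without WT 2, which held the highest sum. No marker in any list was at 0 in every library. The highest value of 7 of the 10 pathway genes, *Il11*, *Osm*, *Lif*, *Il6st*, *Osmr*, *Stat3* and *Socs3*, was also in cKO 1. The part of these cell types in the differences above was not tested.

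Genes with a profile close to that of a member were sought among 11872 protein-coding genes averaging 50 or more normalized counts. Pearson's r over the 6 libraries, which share the genotype contrast, is a description. *Stat3* was followed most closely by *Lox* (r = 0.999), *Aldh1a3* (r = 0.998) and *Hdc* (r = 0.997), and *Socs3* by *Irf9* (r = 0.996), *Ccng1* (r = 0.992) and *Slc38a6* (r = 0.991). *Il11* ran closest to *Mmp28* (r = 0.995), *Krt90* (r = 0.994) and *Mdm2* (r = 0.994), *Osm* to *Psma6* (r = 0.996), *Gpat3* (r = 0.995) and *S100a10* (r = 0.994), and *Il6* to *2610301B20Rik* (r = 0.993), *Epb41l4a* (r = 0.990) and *Alg14* (r = 0.990).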

How the data were processed

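Colonic tissue RNA was sequenced in 3 cKO and 3 WT libraries. The authors deposited a signal per gene for each library, read counts divided by a library scaling factor (normalized counts), for 27202 genes on GRCm38 coordinates. The submitters' processing notes name HISAT2 2.0.5 and featureCounts 1.5.0-p3, and also the human build hg18, whereas the gene coordinates are those of the mouse. Strand and multi-mapping settings are not given in the sources used here. Each library's values were whole multiples of one step, and totals were 14914367 to 17547270 steps. The deposited columns of the authors' own fold changes, p-values and genotype means were not used, and no column of another sample was present.

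Values were tested as log2(value + 1) with limma 3.58.1 in R 4.3.3, with empirical Bayes moderation and Benjamini-Hochberg adjustment over 16246 genes with a mean of at least 10; *Il6*, below that mean, was taken from the fit of all genes. Single values were compared by two-sided exact permutation tests. The labels number the libraries within a genotype and do not tie each to an animal, so p-values measure the spread between these samples, which may be technical. Levels per kb were divided by the deposited gene length. In the exons of the annotation, *Il11ra1* shares 8 bases with *Ccl27a*, *Stat3* shares 72 with *Stat5a* and *Il6ra* shares 242 with an antisense gene. Named genes were the 10 members, the targeted gene and, in each pathway list, the up to 5 genes with the smallest p. Further list genes are named to state a limit of a count or sum. Some genes of the pathway lists are not reported here, and list counts and medians leave them out. The members and lists were chosen with earlier results of these data known. Figures were drawn with matplotlib 3.10.9 in Python 3.11.15. Alternatives were another pseudocount, another filter, quantile normalization, array weights, equal totals, a replicate block and leaving out each library.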

Additional observations from a re-analysis of the deposited data

How the results depend on the processing

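The direction of all 10 genes was the same under each alternative they were run with, though the replicate block could not have changed it. Genes passing an adjusted p of 0.05 in limma, none with the reported settings (1122 higher and 1151 lower at an unadjusted p under 0.05), numbered 7 higher and 23 lower with no filter, 262 and 369 with array weights, 2 and 22 without cKO 1 and 70 and 52 without cKO 2, and leaving out each library gave 0 to 70 higher and 0 to 52 lower. With array weights the log2 fold change was 4.39 for *Il11* (adjusted p = 0.0426), 3.11 for *Il6* with no filter (adjusted p = 0.0240; 3.21 without cKO 2) and −1.10 for *Nedd4l* (adjusted p = 0.0212), from limma. Over all alternatives the adjusted p of *Il11* ran from 0.0233 to 0.512 and that of *Il6* from 0.0240 to 0.459. Leaving out each library gave 2.89 to 4.98 for *Il11*, 2.44 to 3.23 for *Il6* and −1.28 to −0.79 for *Nedd4l*, and the median of the 9 tested members was 0.65 without cKO 2 (0.22 to 0.65). The median of other gp130-family ligands was 0.22 without cKO 1 and 0.209 without WT 1 (0.209 to 0.776 leaving out each library), and that of inhibitors and phosphatases was 0.074 with array weights. Signs turned for *Il27ra* (−0.002 with quantile normalization, −0.15 with array weights, −0.23 to 0.27 leaving out each library), *Cntfr* (−0.20 to 0.50) and *Rhbdf1* (0.03 without cKO 1, 0.14 without WT 1, −0.14 to 0.14 leaving out each library). The cause was not tested.

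Across all genes tested, same-numbered libraries did not deviate together (correlations −0.029, −0.090 and −0.056). Such correlations cannot exclude a pairing that affects only some genes, so whether the replicate numbers pair the samples was not settled. The fit with the replicate block called 0 genes in either direction. At an unadjusted p under 0.05 from limma it gave 1204 genes higher and 1052 lower, against 1122 and 1151 without the block. Each replicate number occurs once per genotype, so this block cannot change a fold change, and the values stayed at 3.75 for *Il11*, 1.74 for *Socs3* and 2.95 for *Il6*. Equal totals, and *Il6* with no filter under each alternative, were added after seeing the data. Planned count-based alternatives, edgeR, DESeq2 and TMM scaling, were not run: the deposited values are normalized, and although they are whole multiples of a step in each library, that step lies near 1 in WT 3, so whole reads were not taken as recovered. With 3 libraries a group, differences of the size seen for *Lif* and *Osmr* lie within the spread between libraries, and the few reads behind *Il6* limit its precision.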
